A study of Mus musculus with 77 samples.

Results

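The genes of the inflammasome, the protein complex that activates caspase-1, were followed in bulk RNA sequencing of mouse liver. The 10 genes comprised 6 sensors (Nlrp3, Nlrc4, Nlrp6, Naip2, Naip5 and Mefv), the adaptor Pycard, the protease Casp1 and the cytokines Il18 and Il1b. They were chosen by name from the 55487 genes of the count table, and all 10 were among the 14904 genes that passed the filter on low counts. The samples were 77 livers of male C57BL/6JRj mice in 10 groups of 7 to 9, with 1 library per mouse. Disease was induced by the Gubra Amylin NASH diet (40% of energy as fat, 22% fructose, 2% cholesterol), given for 34 weeks to mice obtained at 5 to 6 weeks of age. This gives a model of metabolic dysfunction-associated steatohepatitis (MASH) in diet-induced obese mice, here DIO-MASH. The vehicle groups (Vehicle_8_w, 9 mice; Vehicle_16_w, 8; Vehicle_24_w, 7) stayed on that diet and were injected with vehicle. The semaglutide groups (Semaglutide_8_w, 7; Semaglutide_16_w, 8; Semaglutide_24_w, 8) stayed on the diet and received semaglutide, which activates the receptor of the incretin hormone GLP-1, under the skin once a day at 123 µg/kg. The chow reversal groups (Chow_reversal_8_w, 7; Chow_reversal_16_w, 8; Chow_reversal_24_w, 8) were moved to regular chow and received vehicle. The chow group (Chow_Vehicle_24_w, 7) had never been fed the diet and received vehicle for 24 weeks. The diet-fed mice had been selected by a liver biopsy 4 weeks before dosing for steatosis and fibrosis, so the diet groups hold mice with established disease only.

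An inflammasome assembles when a sensor in the cytosol recognises a microbial product or a sign of cell damage. The sensor gathers the adaptor ASC, the product of Pycard, which recruits caspase-1, and caspase-1 then cleaves the precursors of IL-1β and IL-18 and the pore protein gasdermin D. In liver the complex is best known in Kupffer cells and recruited macrophages. Induced transcription of some of its parts, such as Nlrp3 and Il1b, belongs to the priming that can come before activation. The libraries measured mRNA, so neither cleavage of caspase-1 nor release of a cytokine was observed.

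Library totals ran from 8883150 to 37631072 counts, with a median of 16406937. In 3 libraries with a separate run of library numbers (2 of Semaglutide_16_w and 1 of Semaglutide_24_w) predicted genes took 3.34% to 4.11% of counts, against 1.07% to 2.73% in the other 74. Member calls, counts of calls and signs that change without them are marked, while correlations were not recomputed without them. Values are CPM (counts scaled to a common library size, here with TMM factors). Scaling by library totals alone moved the median gene by 0.40 on the log2 scale between vehicle and chow, and by -0.31 to -0.13 in the comparisons of both treatments with vehicle, so every change is stated relative to the bulk of the genes. Of the genes called between Semaglutide_24_w and Vehicle_24_w, 44.2% were higher with TMM and 10.5% with library totals, and between Vehicle_24_w and chow the shares were 54.1% and 89.7%. The hepatocyte markers (Alb, Apoa1, Ttr, Serpina1a, Tat and Cps1) were present in every group and no marker had a group mean of 0.

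The members lay on 7 chromosomes of GRCm38 (GENCODE M21 annotation). Nlrp3 (ENSMUSG00000032691) is at chr11:59541568-59566956, Nlrp6 (ENSMUSG00000038745) at chr7:140920902-140929192 and Casp1 (ENSMUSG00000025888) at chr9:5298517-5307265, all on the plus strand, as is Il18 (ENSMUSG00000039217) at chr9:50554827-50581840. Nlrc4 (ENSMUSG00000039193, chr17:74425438-74459142), Mefv (ENSMUSG00000022534, chr16:3707218-3718097), Pycard (ENSMUSG00000030793, chr7:127989708-127993867) and Il1b (ENSMUSG00000027398, chr2:129364570-129371139) are on the minus strand. Naip2 (ENSMUSG00000078945, chr13:100144063-100202092) and Naip5 (ENSMUSG00000071203, chr13:100211739-100246323) are neighbouring paralogs on the minus strand. Their estimated counts were fractional in 100% and 98.7% of libraries. Those of Casp1, Il18 and Mefv were fractional in 22.1%, 7.79% and 6.49%, and those of the remaining members in 0%. Estimates can become fractional where reads are shared among similar sequences. Which sequences shared reads with any of these genes was not tested, and the split of counts between Naip2 and Naip5 is uncertain. Nlrc4 overlaps the processed pseudogene CT033749.1 and Naip2 the processed pseudogene Gm18413, each on the same strand. Pycard overlaps Gm45205 on the opposite strand. The part of these 3 genes in the member counts was not tested. Il18 shares its span with Bco2 and Tex12, and Il1b with Il1bos, each on the opposite strand. The library kit keeps strand, but the strand setting of the quantification is not given in the sources used here. Il1bos held 51 counts in all 77 libraries, whereas Bco2 averaged 20.1 CPM in Vehicle_24_w and 30.1 in Semaglutide_24_w and is given beside Il18.

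Per kilobase of exon, Nlrp6 was the highest member in every group and Il18 the second. In chow liver Nlrp6 stood at 33.8 CPM per kb and Il18 at 11.3, ahead of Naip2 (1.29) and Casp1 (1.25). Nlrc4, at 0.0484 CPM per kb, was the lowest. In Vehicle_24_w the gap was narrower, with Nlrp6 at 14.2, Il18 at 7.11, Casp1 at 4.12 and Nlrc4 at 0.238 CPM per kb. Nlrc4 and Nlrp3 rested on 1 to 52 and 1 to 72 counts per library, whereas Nlrp6 had 982 to 3365. The SE of the log2 fold change between vehicle and chow was widest for Il1b (0.39) and Mefv (0.38), followed by Nlrc4 (0.35) and Nlrp3 (0.32).

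The letters before the transcription start of 4 members are shown because those genes went in opposite directions below. They are 250-base windows of the RefSeq GRCm38.p6 annotation, which gave at least 1 promoter for all 10 members and 11 in all. Capitals mark the motif letters spelled out after the sequences, which were searched on both strands and did not overlap each other.
Nlrp3 (chr11:59542436-59542685, plus strand): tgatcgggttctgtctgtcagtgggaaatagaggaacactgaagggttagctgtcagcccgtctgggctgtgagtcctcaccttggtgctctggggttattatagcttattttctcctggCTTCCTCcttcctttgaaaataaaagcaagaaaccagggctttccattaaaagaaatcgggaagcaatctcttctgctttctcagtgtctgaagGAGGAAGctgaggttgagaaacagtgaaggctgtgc
Nlrp6 (chr7:140920652-140920901, plus strand): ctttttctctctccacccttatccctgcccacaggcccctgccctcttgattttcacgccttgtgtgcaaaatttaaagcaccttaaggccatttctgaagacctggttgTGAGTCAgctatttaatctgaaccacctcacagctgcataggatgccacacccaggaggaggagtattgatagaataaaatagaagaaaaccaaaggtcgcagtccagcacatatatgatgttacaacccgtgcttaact
Il18 (chr9:50554450-50554699, plus strand): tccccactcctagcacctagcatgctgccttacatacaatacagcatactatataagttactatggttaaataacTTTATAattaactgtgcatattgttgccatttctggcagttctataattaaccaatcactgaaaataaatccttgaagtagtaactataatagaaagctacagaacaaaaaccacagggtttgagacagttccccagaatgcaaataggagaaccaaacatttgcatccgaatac
Il1b (chr2:129371140-129371389, minus strand): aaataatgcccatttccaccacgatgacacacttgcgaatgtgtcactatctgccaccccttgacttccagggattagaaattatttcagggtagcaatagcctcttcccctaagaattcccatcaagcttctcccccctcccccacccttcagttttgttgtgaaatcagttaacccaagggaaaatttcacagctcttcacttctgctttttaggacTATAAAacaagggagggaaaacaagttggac
The Nlrp3 window shown held the PU.1 letters, GAGGAAG, at 2 places, and the Pycard window held them once; 10.6% of the 32851 annotated windows of this length have them. The AP-1 letters, TGANTCA, occurred in the Nlrp6 window only of the 11, against 6.75% of all windows. The TATA box letters, TATAAA, began 31 bases before the start of Il1b and, on the other strand, 175 before that of Il18. It was also in the Naip5 window and in 12.4% of all windows. The NF-κB letters (GGG, any 5 bases, then CC) were in windows of Nlrp3 (at its other start), Naip5, Mefv and Casp1, and in 45.8% of all windows. The C/EBP letters, TTGCNNAA, were in the windows of Nlrc4 and Pycard and in 9.56% of all windows. The letters searched for HNF4, HNF1, ISRE and GAS were in none of the 11 windows and in 0.384%, 0.371%, 2.98% and 7.02% of all windows. These matches describe letters and not binding.

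**Figure D1:**
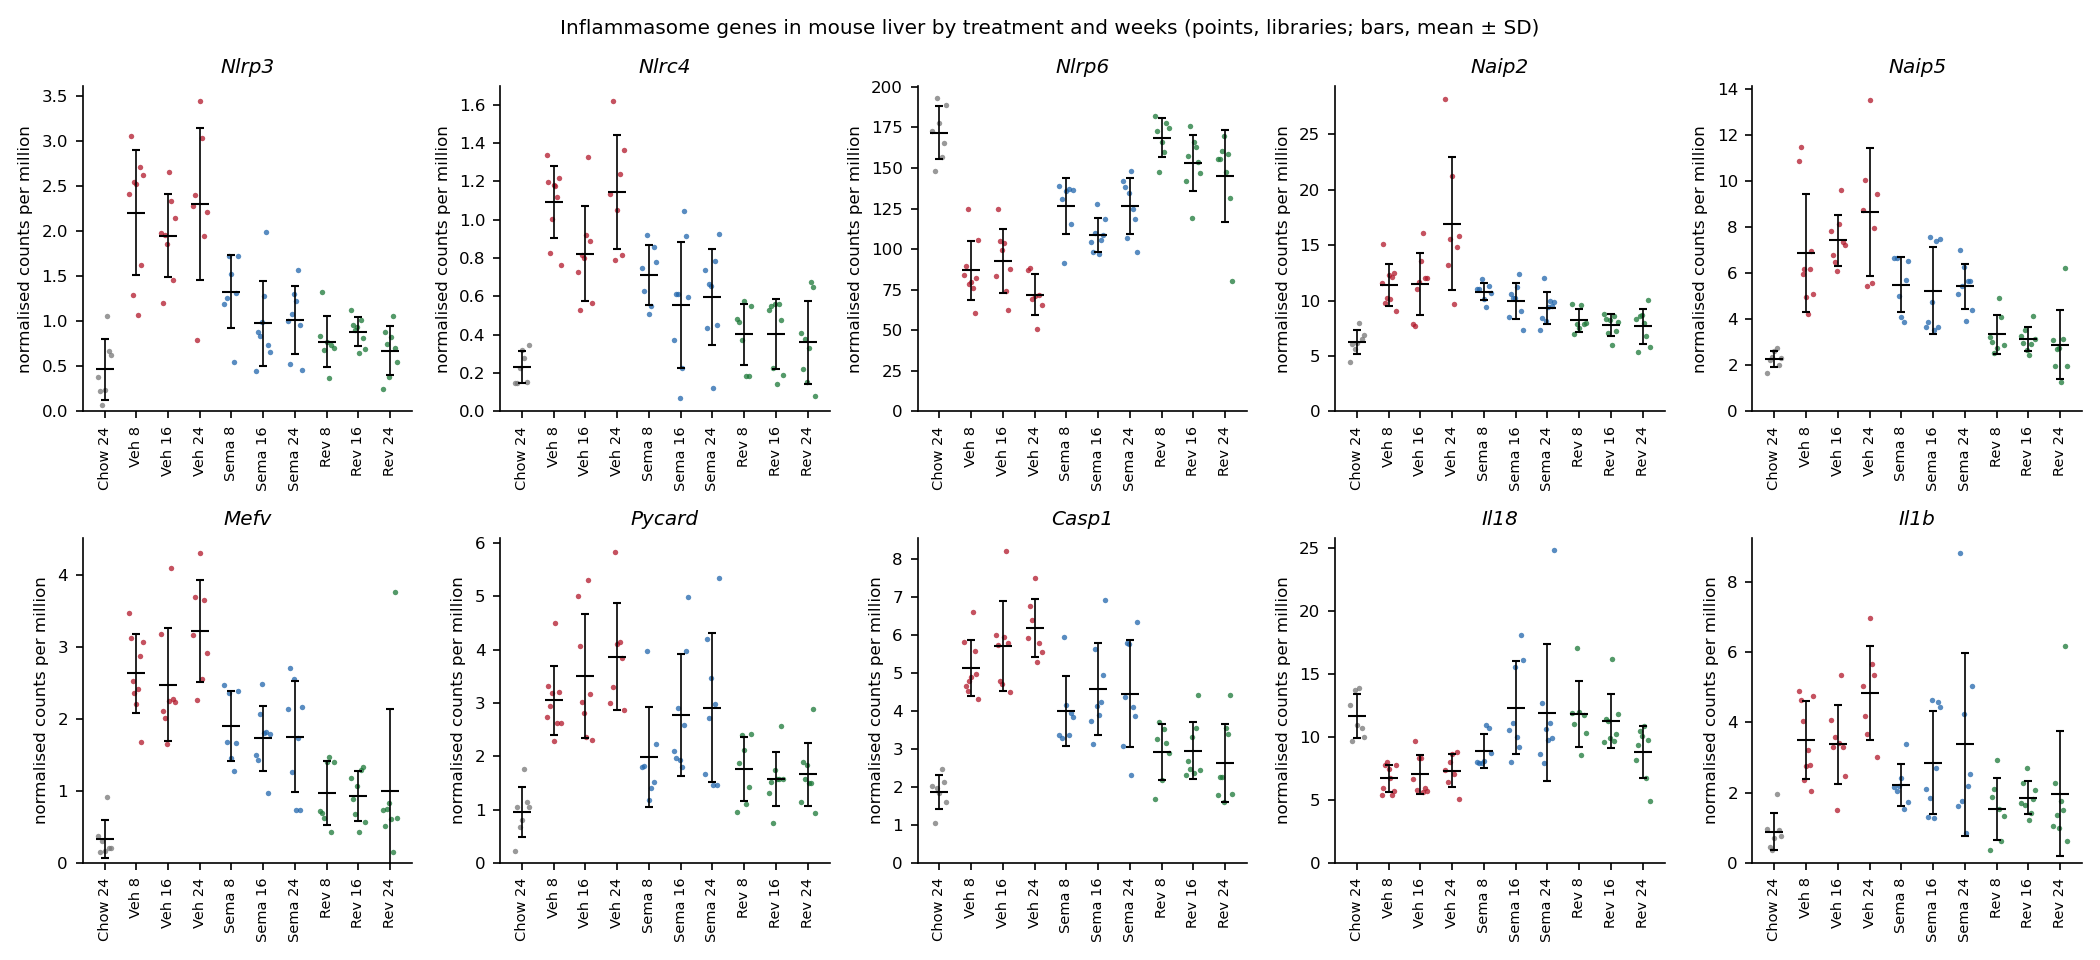
CPM (vertical axes, linear, from 0) of the 10 genes in each of the 77 libraries (points) by group (Chow, lifelong chow; Veh, DIO-MASH vehicle; Sema, semaglutide; Rev, chow reversal; numbers, weeks), with the mean and SD as bars, cut at 0 where they pass it. In 8 panels the Vehicle_24_w mean is highest and the chow mean lowest. Nlrp6 shows the opposite order, Il18 is lowest in the 3 vehicle groups, and Nlrp6 in Vehicle_24_w (highest 88.4) does not reach its lowest chow value (148).

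The first question was how the diet itself had set these genes, and it was read at 24 weeks from vehicle against lifelong chow. Of the 10 members, 8 were higher in DIO-MASH vehicle and 2, Nlrp6 and Il18, were lower, and all 10 passed the test (edgeR quasi-likelihood test, Benjamini-Hochberg adjusted p under 0.05 over all 14904 genes; log2 fold changes are given ± SE). Over all genes 47.7% passed, 25.8% higher and 21.9% lower. The median log2 fold change of the members was 1.97, and that of all genes -0.02. For 7 members every vehicle library lay above every chow library, as did 13.9% of all genes, and for Nlrp6 and Il18 every vehicle library lay below (8.43% of all genes). In bulk liver, fewer cells of a type and less RNA per cell cannot be told apart. The 7 macrophage markers (Adgre1, Csf1r, Cd68, Itgam, Lyz2, Fcgr1 and Mertk) were all higher in the same comparison, with summed levels of 535 to 787 CPM in vehicle and 64.1 to 248 in chow and no marker at 0. The 6 hepatocyte markers were all lower, 42700 to 60492 against 101576 to 129981 CPM. The part of either in the changes below was not tested.

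Markers of other cell types were also higher in vehicle than in chow. They were the 5 T cell markers (Cd3e, Cd3d, Cd3g, Cd8a and Trac; median log2 fold change 2.18), 4 of 5 monocyte markers (Ly6c2, Ccr2, Chil3, Plac8 and Vcan; 2.37) and 5 of 6 cholangiocyte markers (Krt19, Krt7, Epcam, Sox9, Spp1 and Cftr; 2.36). Of the 6 markers of lipid-associated macrophages 5 were higher (4.32), of the 6 Kupffer cell markers 4 (1.65) and of the 5 endothelial markers (Stab2, Clec4g, Lyve1, Pecam1 and Kdr) 3 (0.71). The summed levels in Vehicle_24_w and chow were 3.59 to 14 and 0.875 to 2.26 CPM for T cells, 29.7 to 35.7 and 3.51 to 45.2 for monocytes, and 85.4 to 376 and 40.5 to 55.7 for cholangiocytes. Of the neutrophil list 1 gene was higher, and of the list of epithelia other than liver (Vil1, Muc2, Cdx2, Lgr5, Pnliprp1 and Cela1) 1 was higher and 2 lower. The part of these lists was not tested.

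**Figure D2:**
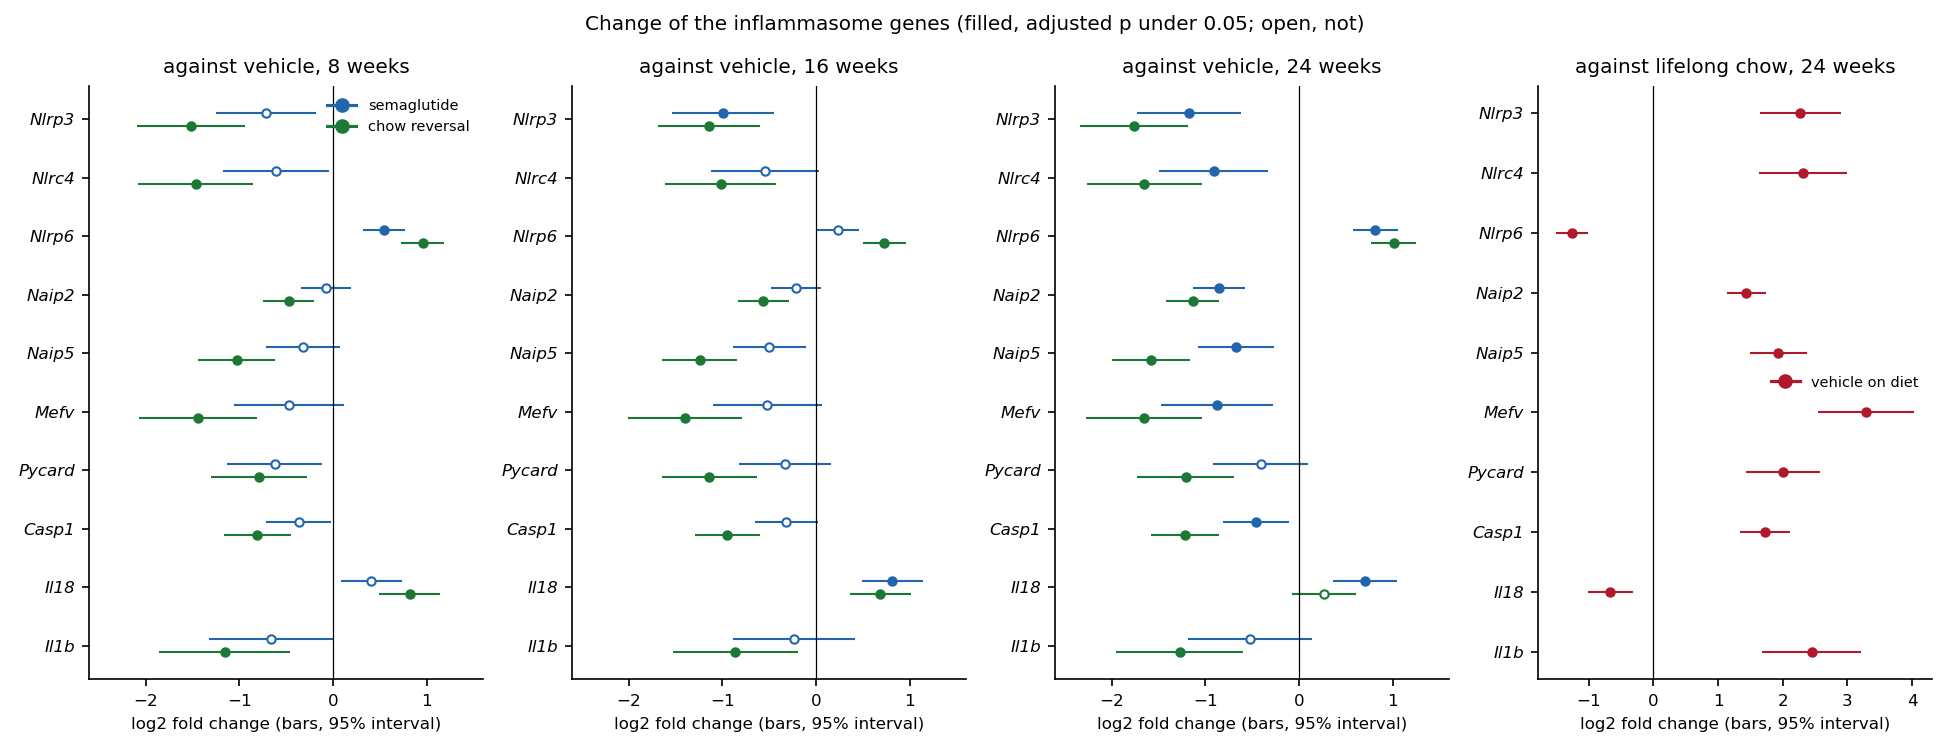
Log2 fold changes (horizontal axes) of the 10 genes with 95% intervals for semaglutide and chow reversal against the vehicle group of the same week (3 left panels) and for vehicle against lifelong chow (right panel, other scale); filled points passed the adjusted p of 0.05. Chow reversal points lie farther from 0 than semaglutide points for every gene and time except Il18 at 16 weeks (0.69 against 0.82) and 24 weeks (0.27 against 0.70), and both treatments share 1 vehicle group in each panel.

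Nlrp3, the sensor of potassium efflux, crystals and other signs of damage, had a lowest, median and highest value of 0.0756, 0.376 and 1.05 CPM in chow and 0.791, 2.27 and 3.44 in Vehicle_24_w. In Semaglutide_24_w they were 0.464, 1.05 and 1.57, and in Chow_reversal_24_w 0.244, 0.729 and 1.05. Vehicle values were the highest, but 1 of 7 vehicle livers lay within the chow range and only 2 of 8 semaglutide livers fell below every vehicle liver. Against chow, vehicle was higher by 2.27 ± 0.32 on the log2 scale (adjusted p = 8.54e-09 by edgeR). With semaglutide Nlrp3 differed from vehicle by -0.71, -0.99 and -1.17 at 8, 16 and 24 weeks (adjusted p = 0.106, 0.0125 and 0.00142 by edgeR), and chow reversal by -1.51, -1.14 and -1.76 (adjusted p = 4.35e-05, 0.000936 and 1.32e-06). Only the 8-week semaglutide difference missed the threshold. Without the 3 libraries of the separate number run the 16-week semaglutide value was -0.84 with an adjusted p of 0.0793.

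The NAIP-NLRC4 arm recognises bacterial protein: NAIP5 binds flagellin, NAIP2 a rod protein of the type III secretion system, and both then open NLRC4. Naip2 was lowest, median and highest at 4.44, 6.13 and 7.94 CPM in chow, 9.72, 15.5 and 28.2 in Vehicle_24_w, 7.31, 9.44 and 12.0 in Semaglutide_24_w and 5.33, 8.13 and 10.0 in Chow_reversal_24_w. All vehicle livers were above all chow livers, and 5 of 8 semaglutide and 7 of 8 reversal livers lay below every vehicle liver. Vehicle exceeded chow by 1.44 ± 0.15 (adjusted p = 6.25e-13 by edgeR). With semaglutide Naip2 differed by -0.08 at 8 weeks (95% interval -0.35 to 0.19) and -0.21 at 16 weeks (-0.48 to 0.06), neither past the threshold, and fell by 0.86 at 24 weeks (adjusted p = 5.41e-06 by edgeR). Chow reversal changed it by -0.47, -0.56 and -1.14 at the 3 times (adjusted p = 0.00679, 0.000965 and 9.49e-10 by edgeR).

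The Naip2 level also differed among the vehicle groups. Its mean was 11.4 ± 1.87 CPM at 8 weeks, 11.5 ± 2.76 at 16 and 16.9 ± 6.03 (SD, n = 9, 8 and 7) at 24. The semaglutide means were 10.8 ± 0.799, 9.95 ± 1.59 and 9.33 ± 1.43 (SD, n = 7, 8 and 8). Vehicle at 24 weeks was above vehicle at 8 weeks by 0.57 ± 0.14 (adjusted p = 0.0146 by edgeR), and Naip2 was the only member of 10 past the threshold there, where 0.792% of all genes were (0.731% higher). No member had separate ranges (0.242% of all genes above and 0.0671% below). In 4 of 7 livers the level exceeded every 8-week liver. The call was lost without replicate 1 of Vehicle_24_w (log2 0.40, adjusted p = 0.225 by edgeR) and without its replicate 4 (0.50, adjusted p = 0.0739), and in a fit of those groups alone (adjusted p = 0.0985).

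Naip5 had lowest, median and highest values of 1.65, 2.30 and 2.74 CPM in chow, 5.43, 8.73 and 13.5 in Vehicle_24_w, 3.91, 5.55 and 6.99 in Semaglutide_24_w and 1.27, 2.73 and 6.24 in Chow_reversal_24_w. Semaglutide livers sat between: all 8 were above the chow livers, and 3 of 8 were below every vehicle liver. Vehicle was above chow by 1.93 ± 0.23 (adjusted p = 3.3e-11 by edgeR). Semaglutide changed Naip5 by -0.67 at 24 weeks (adjusted p = 0.0114; 0.0666 without replicate 4 of Vehicle_24_w), whereas -0.32 and -0.50 at 8 and 16 weeks missed the threshold (adjusted p = 0.395 and 0.0832 by edgeR). The 16-week value passed without replicate 3 or 6 of Semaglutide_16_w (adjusted p = 0.0432 and 0.0421). Under chow reversal the changes were -1.03, -1.24 and -1.58 (adjusted p = 8.99e-05, 1.58e-06 and 6.43e-09 by edgeR).

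Nlrc4, the signalling partner of the NAIPs, ran low, with lowest, median and highest values of 0.149, 0.227 and 0.349 CPM in chow, 0.791, 1.14 and 1.62 in Vehicle_24_w, 0.122, 0.658 and 0.928 in Semaglutide_24_w and 0.0786, 0.354 and 0.678 in Chow_reversal_24_w. Every vehicle liver was above every chow liver, and 7 of 8 semaglutide and all 8 reversal livers were below every vehicle liver. The log2 changes were 2.31 ± 0.35 for vehicle over chow, -0.91 ± 0.30 for semaglutide and -1.65 ± 0.31 for reversal at 24 weeks (adjusted p = 5.48e-08, 0.0184 and 1.65e-05 by edgeR). At 8 and 16 weeks the semaglutide differences, -0.61 and -0.54, did not pass (adjusted p = 0.214 and 0.218), while those of reversal, -1.47 and -1.02, did (adjusted p = 0.000192 and 0.00719 by edgeR). Without replicate 2 of Vehicle_24_w the 24-week semaglutide value was -0.80, with an adjusted p of 0.0531.

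Mefv encodes pyrin, which detects the inactivation of RhoA by bacterial toxins. It had the widest span of the members between group means. It stood at 0.149, 0.209 and 0.913 CPM (lowest, median and highest) in chow and 2.26, 3.17 and 4.30 in Vehicle_24_w, 9.75-fold higher. It stood at 0.729, 1.94 and 2.71 in Semaglutide_24_w and 0.151, 0.680 and 3.77 in Chow_reversal_24_w. Chow and vehicle did not overlap, 6 of 8 semaglutide livers were below every vehicle liver, and 1 reversal liver, replicate 7, was far above the other 7. The log2 changes at 24 weeks were 3.29 ± 0.38 for vehicle over chow, -0.87 ± 0.31 for semaglutide and -1.65 ± 0.32 for reversal (adjusted p = 2.49e-11, 0.0286 and 1.94e-05 by edgeR). The semaglutide call was lost without replicate 2 or 4 of Vehicle_24_w or replicate 5 or 7 of Semaglutide_24_w (adjusted p = 0.0538, 0.0725, 0.0656 and 0.068) and without the filter on low counts (0.0519). Semaglutide differed from vehicle by -0.47 and -0.52 at 8 and 16 weeks (adjusted p = 0.397 and 0.251), and reversal by -1.44 and -1.40 (adjusted p = 0.000351 and 0.000272 by edgeR).

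Nlrp6, a sensor best known from intestinal epithelium, went the other way from the other 5 sensors. Its lowest, median and highest values were 148, 173 and 193 CPM in chow and 50.9, 71.3 and 88.4 in Vehicle_24_w. They were 98.5, 129.5 and 148 in Semaglutide_24_w and 80.6, 155 and 169.7 in Chow_reversal_24_w. All 8 semaglutide livers exceeded all 7 vehicle livers, which was so for 1.15% of all genes, and 7 of 8 reversal livers did, the exception being replicate 8. The log2 difference of vehicle from chow was -1.25 ± 0.13 (adjusted p = 1.87e-13 by edgeR). Semaglutide raised Nlrp6 by 0.54 ± 0.12 at 8 weeks and 0.81 ± 0.12 at 24 weeks (adjusted p = 0.00159 and 8.92e-07 by edgeR).

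At 16 weeks the Nlrp6 difference with semaglutide was 0.23 (95% interval 0.00 to 0.46, adjusted p = 0.179 by edgeR), and it passed without replicate 2 of Vehicle_16_w (adjusted p = 0.0451). The vehicle mean was highest at that time, 92.6 ± 19.8 CPM against 86.8 ± 18.5 and 72 ± 12.9 at 8 and 24 weeks (SD, n = 8, 9 and 7), and the semaglutide mean lowest, 109 ± 10.3 against 127 ± 17.5 and 126 ± 17.5 (SD, n = 8, 7 and 8). Chow reversal raised Nlrp6 at each time, by 0.96, 0.73 and 1.01 (adjusted p = 1.53e-09, 1.01e-06 and 4.01e-10 by edgeR). Every 8-week reversal liver was above every vehicle liver.

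Pycard, whose product ASC joins sensors to caspase-1, had lowest, median and highest values of 0.226, 1.04 and 1.76 CPM in chow, 2.87, 3.84 and 5.82 in Vehicle_24_w, 1.46, 2.85 and 5.33 in Semaglutide_24_w and 0.943, 1.54 and 2.89 in Chow_reversal_24_w. Vehicle lay wholly above chow, by 2.01 ± 0.29 (adjusted p = 2.01e-08 by edgeR), and 4 of 8 semaglutide livers were below every vehicle liver. Semaglutide differed from vehicle by -0.62 (95% interval -1.13 to -0.12), -0.33 (-0.82 to 0.16) and -0.41 (-0.91 to 0.10) at the 3 times, and none passed. Without replicate 8 of Semaglutide_24_w, from the separate number run, the 24-week value was -0.59 (adjusted p = 0.0904 by edgeR). The 8-week value was -0.89 (adjusted p = 0.0274 by edgeR) without replicate 3 of Semaglutide_8_w, the highest liver of its group at 3.97 CPM. Chow reversal changed Pycard by -0.79, -1.14 and -1.21 (adjusted p = 0.0162, 0.000363 and 0.000167 by edgeR). The 8-week call was lost without replicate 1 or 5 of Chow_reversal_8_w (0.0519 and 0.0521).

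Casp1, the protease of the complex, stood at 1.04, 1.97 and 2.46 CPM in chow and 5.29, 5.92 and 7.50 in Vehicle_24_w (lowest, median and highest). It stood at 2.32, 4.24 and 6.34 in Semaglutide_24_w and 1.6, 2.26 and 4.42 in Chow_reversal_24_w. Neither chow nor reversal overlapped with vehicle, whereas 5 of 8 semaglutide livers were below every vehicle liver. The vehicle excess over chow was 1.72 ± 0.20 and the reversal change -1.22 ± 0.18 at 24 weeks (adjusted p = 1.87e-11 and 1.52e-07 by edgeR). Semaglutide changed Casp1 by -0.46 ± 0.18 at 24 weeks with an adjusted p of 0.0498, which lies at the threshold. That call was lost with DESeq2's size factors in edgeR (0.0531), without the low-count filter (0.0961), in a fit of those groups alone (0.0951) and on leaving out 12 of the 15 libraries in turn. Without replicate 8 of Semaglutide_24_w, its highest liver and from the separate number run, the value was -0.55 (adjusted p = 0.0221 by edgeR). At 8 and 16 weeks the semaglutide differences were -0.36 and -0.32 (adjusted p = 0.233 and 0.23), and those of reversal -0.81 and -0.95 (adjusted p = 0.000403 and 2.03e-05 by edgeR).

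Il18 encodes a cytokine that caspase-1 matures and that is also made outside myeloid cells. It was lower in DIO-MASH livers, with lowest, median and highest values of 9.70, 10.9 and 13.9 CPM in chow and 5.09, 7.36 and 8.80 in Vehicle_24_w. They were 7.90, 10.2 and 24.8 in Semaglutide_24_w and 4.87, 9.56 and 10.9 in Chow_reversal_24_w. Chow and vehicle did not overlap, and 6 of 8 semaglutide livers and 5 of 8 reversal livers were above every vehicle liver. The log2 difference of vehicle from chow was -0.67 ± 0.18 (adjusted p = 0.00122 by edgeR), a call lost with library totals (-0.25, adjusted p = 0.192, with the median gene shifted by 0.40). Semaglutide differed by 0.41, 0.82 and 0.70 (adjusted p = 0.137, 0.000718 and 0.00174 by edgeR), so Il18 was higher at 16 and 24 weeks.

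Of the 5 highest Il18 values in the series, 3 came from the libraries of the separate number run: 24.8 CPM in Semaglutide_24_w and 18.1 and 16.1 in Semaglutide_16_w. Without those 3 the semaglutide differences were 0.43, 0.64 and 0.48 at 8, 16 and 24 weeks (adjusted p = 0.0499, 0.00829 and 0.0131 by edgeR). Chow reversal raised Il18 by 0.82 and 0.69 at 8 and 16 weeks (adjusted p = 9.34e-05 and 0.000904), with all 7 reversal livers above all vehicle livers at 8 weeks. At 24 weeks the value was 0.27 (95% interval -0.07 to 0.61) and turned to -0.03 with library totals. Bco2, a carotenoid-cleaving enzyme on the other strand of the same span, differed by -0.62 between vehicle and chow and by 0.58 with semaglutide at 24 weeks (adjusted p = 0.000269 and 0.00172 by edgeR). At 8 and 16 weeks of semaglutide Bco2 differed by 0.37 and 0.35 (adjusted p = 0.0915 and 0.0766). Its part in the Il18 counts was not tested.

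Il1b, the other caspase-1 substrate and a product of primed macrophages and neutrophils, had lowest, median and highest values of 0.378, 0.767 and 1.97 CPM in chow, 3.02, 5.02 and 6.98 in Vehicle_24_w, 0.855, 2.36 and 8.83 in Semaglutide_24_w and 0.629, 1.43 and 6.18 in Chow_reversal_24_w. Semaglutide livers spread the most: 5 of 8 were below every vehicle liver and 1 was above all of them. Vehicle exceeded chow by 2.45 ± 0.39, with no overlap (adjusted p = 2.46e-07 by edgeR). Semaglutide differences were -0.66 (95% interval -1.33 to 0.01), -0.24 (-0.89 to 0.41) and -0.52 (-1.19 to 0.14), none past the threshold. Chow reversal changed Il1b by -1.16, -0.86 and -1.27 (adjusted p = 0.00921, 0.0483 and 0.00248 by edgeR). The 16-week call was lost without the low-count filter (0.102) and on leaving out 13 of the 16 libraries in turn. The 7 neutrophil markers (S100a8, S100a9, Ly6g, Retnlg, Cxcr2, Mpo and Csf3r) summed to 7.21 to 13.1 CPM in Vehicle_24_w and 3.42 to 31.2 in Semaglutide_24_w, and Ly6g was at 0 in 6 of 10 groups; only 4 of the 7 passed the filter, and their part in the Il1b values was not tested.

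The number of members called with semaglutide differed between the time points, a difference that is not itself a test of a change in effect. Against the vehicle group of the same week, 1 of 10 passed at 8 weeks (5.62% of all genes), 2 at 16 weeks (12.2%) and 8 at 24 weeks (24.3%). The 8-week member was higher (2.17% of all genes were higher and 3.45% lower), and the 16-week members were 1 higher (6.35%) and 1 lower (5.81%). At 24 weeks 2 were higher (10.8%) and 6 lower (13.6%). No member had ranges wholly above or below vehicle at 8 weeks (0.718% and 1.13% of all genes) or 16 weeks (0.275% and 0.624%), and none lay wholly below at 24 weeks (2.97%). The median log2 fold change of the members was -0.42, -0.32 and -0.60, against 0.00, 0.00 and -0.01 for all genes. The 24-week count was 5 without replicate 2 or replicate 4 of Vehicle_24_w, and the 8-week count 2 without replicate 3 of Semaglutide_8_w. Of the 7 macrophage markers 0, 3 and 6 were lower with semaglutide at 8, 16 and 24 weeks (medians -0.47, -0.75 and -0.90), and of the 6 hepatocyte markers 2, 4 and 5 were higher. Summed macrophage markers ran over 266 to 676 CPM in Semaglutide_24_w and summed hepatocyte markers over 59801 to 112803. Among the 6 Kupffer cell markers (Clec4f, Timd4, Vsig4, Cd5l, Marco and Folr2) 1 was higher and 1 lower at 24 weeks, whereas 5 of the 6 markers of lipid-associated macrophages (Trem2, Gpnmb, Cd9, Fabp5, Lgals3 and Mmp12) were lower. Of the 5 monocyte markers 1, 0 and 2 were lower at the 3 times, of the 6 cholangiocyte markers 1 at each, and of the 5 T cell markers none (24-week median -0.31). The part of these lists in the member changes was not tested.

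Chow reversal moved nearly all members from the first time point. All 10 passed at 8 weeks (32% of all genes) and at 16 weeks (28.1%), and 9 at 24 weeks (36%), Il18 being the one that did not. At 8 weeks 2 were higher (14.2%) and 8 lower (17.8%), at 16 weeks 2 higher (12%) and 8 lower (16.2%), and at 24 weeks 1 higher (16.9%) and 8 lower (19.1%). The median log2 fold change was -0.92, -0.98 and -1.25. Non-overlapping ranges were found for 2 members above and 3 below vehicle at 8 weeks (4.53% and 6.56% of all genes), 4 below and 0 above at 16 weeks (5.25% and 2.5%) and 2 below and 0 above at 24 weeks (5.15% and 1.76%). All 7 macrophage markers were lower at each time, with medians of -1.33, -1.38 and -1.71 and a summed level of 88.9 to 453 CPM at 24 weeks. Of the 6 hepatocyte markers 5, 5 and 6 were higher. Kupffer cell markers were lower for 3, 4 and 4 of 6, those of lipid-associated macrophages for 5 of 6 at each time (with 1 higher), monocyte markers for 4, 3 and 4 of 5, endothelial markers for 3 of 5 at each time, T cell markers for 0, 1 and 5 of 5, and cholangiocyte markers for 0, 2 and 0 of 6. The part of these lists in the member changes was not tested.

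**Figure D3:**
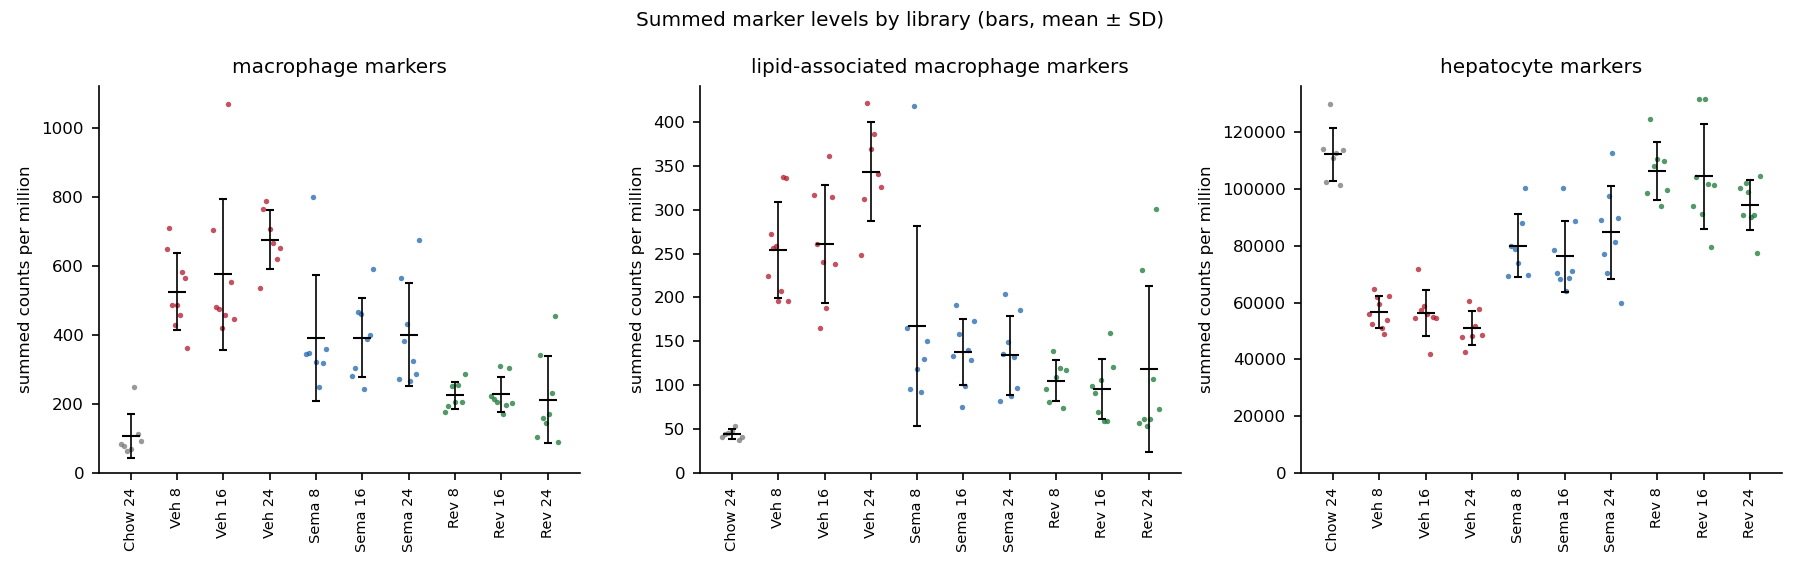
Summed CPM (vertical axes, linear, from 0) of 7 macrophage, 6 lipid-associated macrophage and 6 hepatocyte markers in each library by group (abbreviations as in the plot of levels; bars, mean and SD). Macrophage sums in Vehicle_24_w (534.8 to 786.9) overlap with Semaglutide_24_w (266 to 675.5) and lie above chow (64.1 to 248), and hepatocyte sums run in the opposite order.

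Semaglutide and chow reversal were then compared directly at matched times. At 8 weeks Nlrp6 was lower (-0.41, adjusted p = 0.03 by edgeR) and Naip5 higher (0.71, 0.0367) with semaglutide, 2 of 10 members against 6.16% of all genes (3.53% higher and 2.63% lower). The Nlrp6 ranges did not overlap at that time (2.41% of all genes were wholly lower and 1.94% wholly higher). At 16 weeks Nlrp6 was lower (-0.49, adjusted p = 0.00266 by edgeR) and Naip5, Pycard and Casp1 higher (0.74, 0.81 and 0.63; adjusted p = 0.0119, 0.0346 and 0.0141), 4 members against 9.72% (6.21% higher and 3.5% lower). At 24 weeks Naip5, Pycard and Casp1 were higher (0.91, 0.80 and 0.75; adjusted p = 0.00158, 0.0275 and 0.00266 by edgeR), 3 against 16.4% (7.72% higher and 8.65% lower). No member had separate ranges at 16 weeks (0.644% of all genes wholly higher and 0.53% wholly lower) or 24 weeks (0.315% and 0.362%). Naip5 passed at all 3 times, but its 8-week call was lost on leaving out 10 of the 14 libraries in turn (adjusted p = 0.051 to 0.0863 by edgeR) and without the low-count filter (0.063). The Pycard call was lost on leaving out 7 of 16 libraries in turn at 16 weeks and 5 of 16 at 24 weeks. One of the latter was replicate 8 of Semaglutide_24_w, from the separate number run (0.62, adjusted p = 0.0943 by edgeR). Casp1 at 16 weeks was lost without replicate 8 of Semaglutide_16_w, also from that run (0.53, adjusted p = 0.0625 by edgeR). Without that run 2 members passed at 16 weeks (566 of 14959 genes tested were higher and 299 lower). At 24 weeks 2 also passed (1180 genes higher and 1367 lower of 14959). The 24-week count was 6 without replicate 7 of Chow_reversal_24_w, with Nlrc4, Mefv and Il1b added (0.93, 1.56 and 1.30), and 5 without replicate 7 of Semaglutide_24_w, and the 16-week count was 2 without replicate 8 of Semaglutide_16_w. The 8-week count fell to 0 without replicate 1, 2 or 7 of Chow_reversal_8_w or replicate 3 or 6 of Semaglutide_8_w, and to 1 without replicate 3, 4 or 6 of the former or 1, 2 or 7 of the latter.

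Distance from lifelong chow at 24 weeks was read from the same 7 chow livers for each treatment, so those comparisons share their reference. After semaglutide 9 of 10 members still differed from chow (31.3% of all genes), 8 higher (17.9%) and Nlrp6 lower (13.5%). Il1b was at 1.92, Mefv at 2.41, Pycard at 1.6 and Naip2 at 0.58 (adjusted p = 6.88e-05, 6.55e-07, 9.37e-06 and 0.00139 by edgeR). Nlrp6 differed from chow by -0.44 (adjusted p = 0.00311 by edgeR; -0.26 and 0.059 with library totals), and Il18 was at 0.03 (95% interval -0.30 to 0.37). Only for Naip5 did all 8 semaglutide livers exceed all chow livers (4.29% of all genes), and no member lay wholly below (2.47%). After reversal 1 member passed, Mefv at 1.63 (adjusted p = 0.00444 by edgeR), against 6.64% of all genes (5.73% higher and 0.906% lower). No member had ranges apart from chow (0.409% above and 0.101% below). The Mefv call was lost without replicate 7 of Chow_reversal_24_w (0.88, adjusted p = 0.2), and the count was 2 or 3 without replicates 1, 3, 4 or 8 of that group or replicate 5 of chow. The other 9 missed the threshold. Among them the unadjusted 95% intervals of Il1b (0.40 to 1.94), Casp1 (0.12 to 0.89), Pycard and Naip2 lay above 0. Those of Il18 and Nlrp6 lay below 0, and those of Nlrp3, Nlrc4 and Naip5 included 0.

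**Figure D4:**
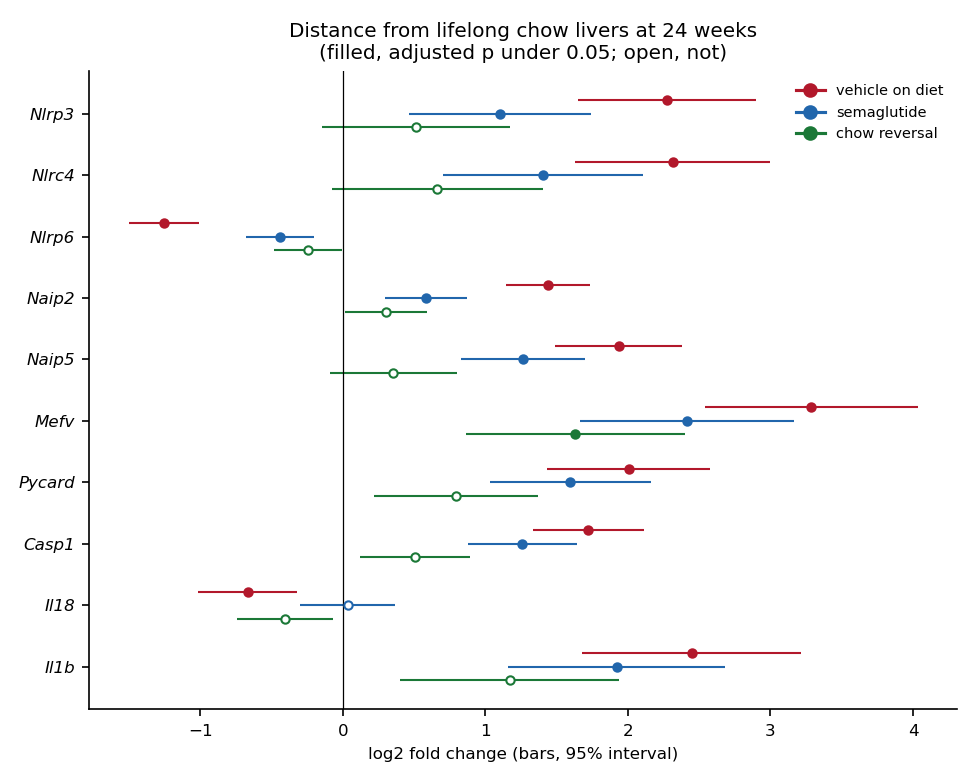
Log2 fold changes against lifelong chow at 24 weeks (horizontal axis) for the 10 genes in vehicle, semaglutide and chow reversal livers, with 95% intervals; filled points passed the adjusted p of 0.05. Semaglutide lies between vehicle and reversal for 9 genes, and for Il18 it is nearest to 0 (0.03 against -0.67 and -0.40).

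Whether the treatment effects changed between 8 and 24 weeks was tested as the difference of the differences. By edgeR 0 of 10 members passed for semaglutide (0.0604% of all genes) and 0 for chow reversal (0.215%), and DESeq2 also gave 0 for both. At an unadjusted p under 0.05 there were 1 and 2. That 1 was Naip2 for semaglutide (-0.78, adjusted p = 0.157 by edgeR), and the 2 were Naip2 and Il18 for reversal (-0.66 and -0.55, adjusted p = 0.161 and 0.326). Without replicate 5 of Vehicle_24_w Naip2 passed in both (-0.87 and -0.77, adjusted p = 0.0191 and 0.0334 by edgeR), and in the second also without replicate 7 of Chow_reversal_24_w (-0.74, 0.0498). A larger effect at 24 weeks than at 8 weeks was thus not shown for the members by these tests, though their counts of calls differed.

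Replicate 7 of Chow_reversal_24_w stood apart in several members at once. It had 6.18 CPM of Il1b, 3.77 of Mefv and 6.24 of Naip5, the highest of its group. Its macrophage markers summed to 453 CPM, its Kupffer cell markers to 440 CPM and its neutrophil markers to 15.1 CPM, also the highest of the group, and their part in its member values was not tested. Without it the 24-week reversal changes from vehicle were -1.80 for Il1b, -2.40 for Mefv and -1.83 for Naip5.

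Of the other 48 genes of the pathway that were listed, 43 passed the filter, and Gsdmc, Nlrp9b, Nlrp10, Il1r2 and Trim31 did not. Against chow 27 were higher in vehicle (25.8% of all genes were) and 4 lower (21.9%; Nlrp12, Il1rap, Sharpin and Brcc3), with a median of 1.47. With semaglutide 1 was higher (2.17% of all genes) and 1 lower (3.45%) at 8 weeks, 2 higher (6.35%) and 4 lower (5.81%) at 16 weeks, and 3 higher (10.8%) and 12 lower (13.6%) at 24 weeks (medians -0.08, -0.26 and -0.44). With chow reversal 3, 2 and 4 were higher (14.2%, 12% and 16.9% of all genes) and 19, 23 and 21 lower (17.8%, 16.2% and 19.1%).

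Among the ligands and their inhibitors, Il1rn, the IL-1 receptor antagonist, was 17.6 ± 4.95 CPM in Vehicle_24_w, 8.89 ± 3.16 in Semaglutide_24_w and 2.45 ± 0.820 in chow (SD, n = 7, 8 and 7). It fell by 0.71 and 0.98 on the log2 scale with semaglutide at 16 and 24 weeks (adjusted p = 0.0254 and 0.000975 by edgeR), as did Il18bp, which neutralises IL-18, at 24 weeks (-0.61, adjusted p = 0.00725). Il1a, the IL-1 alpha gene, differed by -0.15 (adjusted p = 0.661 by edgeR) with semaglutide and fell by 1.12 with reversal (adjusted p = 8.98e-05). Il33, an alarmin of the IL-1 family, fell by 0.99 at 8 weeks and 1.14 at 24 weeks (adjusted p = 0.012 and 0.000785 by edgeR), with -0.39 between (0.324).

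Il1rap, the shared receptor subunit for IL-1 and IL-33, had the signs of Nlrp6 and passed at all 3 semaglutide times. It was 158 ± 29.7 CPM in chow, 53.9 ± 10.4 in Vehicle_24_w and 97.4 ± 19.1 in Semaglutide_24_w (SD, n = 7, 7 and 8), with no overlap between vehicle and either. Semaglutide raised it by 0.55, 0.64 and 0.85 (adjusted p = 0.0119, 0.00208 and 1.86e-05 by edgeR). Brcc3, a deubiquitinase that acts on NLRP3, rose by 0.34 and 0.31 at 16 and 24 weeks (adjusted p = 0.00594 and 0.00824).

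Panx1, a channel that releases ATP, fell by 0.89 and 1.6 with semaglutide at 16 and 24 weeks (adjusted p = 0.0343 and 6.5e-05 by edgeR), and at both times no semaglutide liver reached a vehicle liver. Its vehicle mean rose from 1.40 ± 0.556 CPM at 8 weeks to 2.97 ± 1.19 at 24 weeks (SD, n = 9 and 7; log2 1.06, adjusted p = 0.0464 by edgeR). Ifi204, a DNA sensor of the interferon-inducible family, and Irf8, a transcription factor of myeloid cells, fell at 16 weeks (-0.60 and -0.61) and 24 weeks (-0.83 and -0.60; adjusted p = 1.54e-05 and 0.00381 by edgeR). Casp12 fell by 1.54 at 24 weeks (adjusted p = 0.00227). Gsdmd, the pore protein that caspase-1 cuts, was 44 ± 9.88 CPM in Vehicle_24_w and 38.7 ± 3.97 in chow (SD, n = 7 each; log2 0.19, 95% interval -0.10 to 0.47). It differed from vehicle by 0.36 with semaglutide at 24 weeks (adjusted p = 0.0516 by edgeR), which missed the threshold. Gsdmd passed as higher with semaglutide than in chow at 24 weeks, and than in chow reversal at 16 and 24 weeks. Il18bp, Il1a and Gsdmd were named for their roles after their values had been seen.

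**Figure D5:**
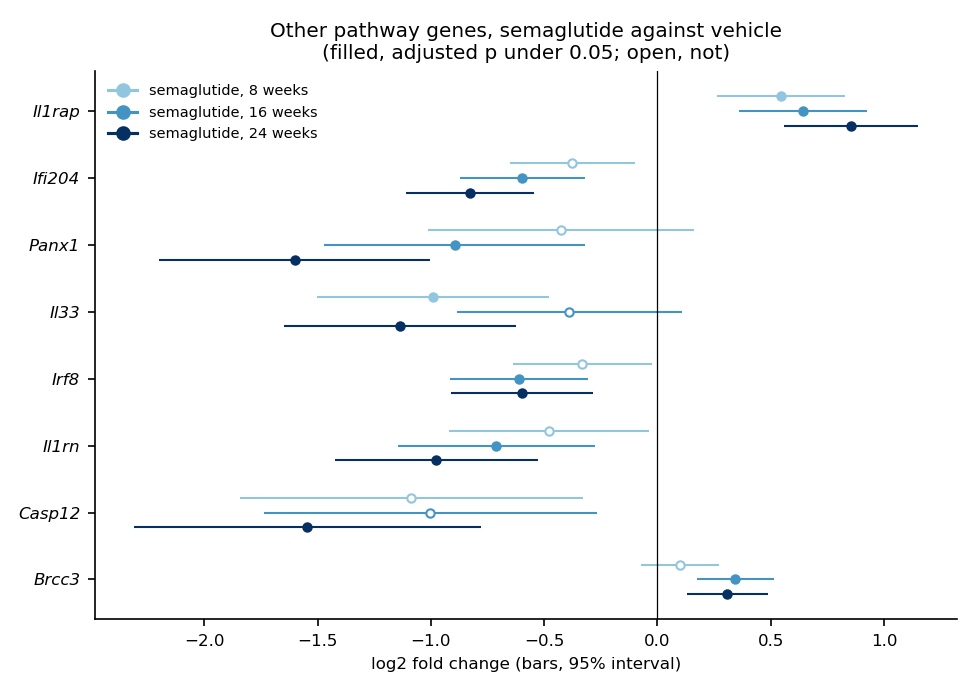
Log2 fold changes (horizontal axis) of semaglutide against vehicle at 8, 16 and 24 weeks for the 8 other pathway genes with the smallest joint p over the 3 times, with 95% intervals; filled points passed the adjusted p of 0.05. Il1rap and Brcc3 lie to the right of 0 at each time and the other 6 to the left, with Panx1 reaching -1.6 at 24 weeks.

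The genes whose log2 CPM followed each member most closely were sought over the 77 libraries among 11838 named genes, and Pearson's r is given with r after removal of group means. All points share the 10 groups, so r over all libraries holds the differences between groups. Casp1 went with Clec12a (0.93; 0.75), a myeloid lectin, and Rgs2 (0.93; 0.76), and Pycard with Ms4a7 (0.90; 0.75) and Arhgdib (0.89; 0.75). Il1b went with the lectin gene Clec4n (0.86; 0.74) and with Pirb (0.85; 0.74). Nlrp3 was most like Iqgap1 (0.84; 0.50) and Axl (0.84; 0.56), Nlrc4 like Il10rb (0.84; 0.59), and Mefv like Vav1 (0.90; 0.62) and Slc11a1 (0.89; 0.58). Naip5 was most like Sdc3 (0.90; 0.61) and Abcg1 (0.90; 0.58), and Naip2 like the interferon-induced Ifit2 (0.86; 0.59) and Stk10 (0.85; 0.60). Nlrp6 stood with Scnn1a (0.94; 0.76), an epithelial sodium channel subunit, BC024386 (0.93; 0.81) and Hal (0.91; 0.67), the histidine-degrading enzyme. Il18 stood with Iah1 (0.84; 0.71), Nit2 (0.84; 0.71) and Pyurf (0.83; 0.67). Between members, Casp1 and Pycard had r = 0.82 (0.54 within groups), whereas Il18 and Il1b had r = -0.15 over all libraries and 0.38 within groups. The 3 libraries of the separate number run were included, and no r was recomputed without them. They held 16.1 to 24.8 CPM of Il18, 4.45 to 5.02 of Il1b, 3.97 to 5.33 of Pycard and 4.94 to 6.90 of Casp1. The Semaglutide_16_w medians were 10.8, 2.40, 2.34 and 4.19, and those of Semaglutide_24_w 10.2, 2.36, 2.85 and 4.24. The part of these libraries in r was not tested.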

How the data were processed

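Libraries were prepared from the left lateral liver lobe with a directional kit (NEBNext Ultra II Directional) and sequenced on a NextSeq 500. The authors deposited estimated counts per gene. Per their methods, STAR 2.7.3a aligned the reads to the GRCm38 transcriptome of Ensembl, Salmon 1.2.0 made the counts, FastQC 0.11.9 and Picard served for quality checks, and DESeq2 for their own tests. Of the deposited values 7.55% were fractional, and all were rounded to whole numbers here. Symbols, positions and exon lengths came from GENCODE M21, which matched 55141 of 55487 identifiers, and the 346 others held 0.0395% of counts. Promoter windows of 250 bases came from RefSeq GRCm38.p6.

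Counts were filtered with filterByExpr by group, scaled by TMM and fitted in edgeR 4.0.16 (R 4.3.3) with 1 quasi-likelihood model over all 10 groups. A gene was called at a Benjamini-Hochberg adjusted p under 0.05 over 14904 genes, tests were two-sided, and 95% intervals are log2 fold change ± 1.96 SE. The common dispersion was 0.0660. Each of 15 comparisons was a contrast of that model. The count model includes sampling error. Groups followed the labels, and each library came from its own mouse. No pair of libraries was identical. In simulated data for 24 weeks of semaglutide (14696 genes), 39 of 50 genes changed 2-fold and 23 of 50 changed 1.5-fold were called. Far fewer genes were changed there than were called in the real comparison, and they were drawn from all expression levels. These rates are therefore not the power for the members, several of which had low counts. Alternatives were DESeq2 1.42.0, its size factors in edgeR, library totals, no low-count filter, only the groups compared, omission of the separate number run, and omission of each library in turn.

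The 10 members were always named, with the 8 other pathway genes of smallest joint p for the 3 semaglutide effects and up to 3 genes most alike each member by r. Marker genes were named by list beside the results, and 1 marker list is not reported here. Members and lists were chosen with earlier results of these data known.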

Additional observations from a re-analysis of the deposited data

Results flagged for a closer look

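Within each group, the highest or lowest liver was compared with its nearest neighbour for each of the 10 genes. In 14 of 100 groups of values 1 liver lay farther from the others than Dixon's 95% limit allows. Chance gives about 1 in 20 for independent values with a normal distribution. The CPM values were not shown to be normal and the same livers recur among the genes, so no excess over chance was tested. Replicate 7 of Chow_reversal_24_w was highest for Mefv (3.77 CPM, next 0.838), Naip5 (6.24, next 3.16) and Il1b (6.18, next 2.26). Replicate 3 of Semaglutide_8_w was highest for Casp1 (5.93 CPM, next 4.16) and Pycard (3.97), with summed macrophage markers of 798 CPM. Replicate 5 of Chow_Vehicle_24_w was highest for Il1b (1.97 CPM, next 0.978) and Mefv (0.913, next 0.376), with summed macrophage markers of 248 CPM. For Il18, replicate 8 of Semaglutide_24_w (24.8 CPM, next 12.7), replicate 3 of Chow_reversal_8_w (17, next 11.9) and replicate 5 of Chow_reversal_16_w (16.2, next 11.8) were highest. Casp1 in replicate 6 of Vehicle_16_w was 8.20 CPM (next 5.99), where macrophage markers summed to 1069 CPM. Pycard was highest in replicate 3 of Vehicle_24_w (5.82 CPM) and replicate 6 of Vehicle_8_w (4.50). Nlrp6 was lowest in replicate 8 of Chow_reversal_24_w (80.6 CPM, next 132).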

How the results depend on the processing

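No paired analysis was possible because each mouse was killed once and replicate numbers only name livers. With DESeq2's size factors in edgeR every count of members past the threshold stayed within 1.5 times that reported. Without the separate number run, semaglutide against vehicle gave 2 members at 8 weeks (536 of all 14959 genes tested were higher and 595 lower). At 16 weeks that setting gave 1 member (366 genes higher and 369 lower of 14959). A fit of those groups alone gave 4 members at 8 weeks (936 genes higher and 1163 lower of 13809). Semaglutide against chow reversal at 8 weeks gave 4 members with library totals (1290 genes higher and 229 lower of 14904). It gave 0 without the low-count filter (336 and 250 of 32065) and 6 with the groups alone (1427 and 1558 of 13321). At 16 weeks it gave 2 without the separate number run (566 and 299 of 14959). At 24 weeks it gave 1 with the groups alone (313 and 207 of 13101). Chow reversal against chow gave 4 members with library totals (1329 genes higher and 55 lower of 14904). It gave 2 without the separate number run (978 and 149 of 14959) and 0 with the groups alone (108 and 13 of 12887). With DESeq2 it gave 2 (978 and 153 of 16516). Vehicle at 24 against 8 weeks gave 0 with the groups alone (174 and 56 of 14021). Leaving out each library in turn, the counts ran from 1 to 2, 2 to 3 and 5 to 8 for semaglutide against vehicle at 8, 16 and 24 weeks. They ran from 9 to 10, 9 to 10 and 9 to 9 for chow reversal, 10 to 10 for vehicle against chow, and 0 to 3, 2 to 5 and 2 to 6 for semaglutide against reversal. They were 9 to 9 for semaglutide and 0 to 3 for reversal against chow, 0 to 1 for vehicle over time, and 0 to 1 for each change of effect. Signs turned for Il18 with library totals (reversal at 24 weeks, -0.031) and without the separate number run (semaglutide against reversal at 16 weeks, -0.0568, and against chow, -0.19), and for Il1b in the change of the semaglutide effect with library totals (-0.0199). On leaving out libraries, signs turned within -0.10 to 0.27 for Pycard (semaglutide against reversal, 8 weeks), -0.0885 to 0.26 for Nlrp3 (the same, 16 weeks) and -0.21 to 0.10 for Il18 (semaglutide against chow). For vehicle over time they turned within -0.054 to 0.23 (Nlrp3) and -0.0292 to 0.15 (Nlrc4), for the change of the semaglutide effect within -0.19 to 0.023 (Casp1) and -0.23 to 0.28 (Il1b), and for that of reversal within -0.030 to 0.14 (Nlrp6) and -0.67 to 0.12 (Il1b). None of these values was past the threshold, and the cause was not tested. With library totals in place of TMM, the share of all called genes that were higher went from 38.6% to 12.7% and 52.2% to 13.1% for semaglutide at 8 and 16 weeks, and from 44.3% to 10.1%, 42.6% to 10.5% and 47% to 11.1% for reversal. It went from 57.3% to 84.9%, 64% to 83.2% and 47.2% to 76.4% for semaglutide against reversal, and from 57% to 88.9% for semaglutide against chow. Depth limits the low genes, of which Nlrp3 and Nlrc4 had as few as 1 count in a library.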
